A study of Danio rerio with 10 samples.

Results

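The 8 genes described here belong to the Nodal pathway. They are the ligand genes ndr1 and ndr2, the ligand partner gdf3, the antagonists lft1 and lft2, the co-receptor tdgf1, and the nuclear transducers foxh1 and smad2. They were chosen by name for their place in the pathway, and all 8 were found among the 20920 genes of the count table. They were measured in single cells of zebrafish (Danio rerio) embryos of the AB/TL strain by Drop-seq, with metabolic labeling of new RNA. Every embryo was injected at the 1-cell stage with 20 mM 4sUTP, a uridine analog that enters RNA made after the injection, together with GFP and mCherry mRNAs that carry no label and an RFP mRNA that does. On the beads, 10 mM iodoacetamide (IAA) converted the analog so that it reads as a T-to-C change. A labeled copy is therefore zygotic, and an unlabeled copy is maternal or was missed by the estimate. The groups are dome (1 library, replicate B), 30% epiboly and 50% epiboly (each with a replicate A and a replicate B). Each library pooled cells of many embryos without a mutation or a signaling inhibitor. Per the methods of the study, the epiboly embryos of the first replicate were deyolked by dissection. The dome embryos and the epiboly embryos of the second replicate were deyolked in buffer by shaking. The methods use no letters and count dome in the first replicate, although its label says B. Replicate A is taken here as the first replicate and B as the second. Clusters were named by the study from marker genes, with endoderm cells set apart by their sox32 RNA. The cell type names are the deposited ones, and since they came from the total RNA of the same cells, levels by cell type are a description without a test.

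Nodal ligands belong to the TGF-beta family. In the early zebrafish embryo they are made at the margin of the blastoderm and in the yolk syncytial layer below it, and they pattern mesoderm and endoderm. They bind activin receptors together with the co-receptor encoded by tdgf1 (one-eyed pinhead), which leads to phosphorylation of Smad2. Smad2 then acts on target genes with Foxh1 and other factors, and the lefty genes are targets that encode inhibitors of the ligands. The product of gdf3 (Vg1) pairs with the Nodal proteins encoded by ndr1 (squint) and ndr2 (cyclops).

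The 5 libraries held 8226 cells, from 251 in 50% epiboly replicate B to 3068 in 50% epiboly replicate A, with medians of 2066 to 4087 UMIs per cell. A UMI (unique molecular identifier) marks 1 captured mRNA molecule. Levels are UMIs per 1000000 UMIs of the library or sum (CPM). Since UMIs count captured 3′ ends, each gene is compared with itself across libraries and cell types and no level is compared between genes. Intervals are exact 95% intervals for counting error only. The cells of 6 types are grouped here as margin cells (Notochord, Prechordal Plate, Ventral Margin, Muscle Blood, Endoderm (A) and Endoderm (B)), and they made up 12.5% of cells at dome, 29.6% and 29.3% at 30% epiboly, and 37.4% and 39.4% at 50% epiboly. Of the markers checked, noto, gsc, sox32, eve1, krt8, nanos3 and dnd1 averaged highest in a type they mark. The study named the clusters with these genes, or set endoderm apart by sox32, so this is no independent check. The markers tbxta, tbx16 and sox3 did not average highest in the type they were checked for. tbxta, which the paper lists as a mesoderm gene, averaged 1124 CPM in Notochord cells, against 2370 CPM in Muscle Blood cells. The margin gene tbx16 averaged 1802 CPM in Ventral Margin cells, against 2287 CPM in Muscle Blood cells. sox3, which the paper lists as an ectoderm gene, averaged 2290 CPM in Neural Ectoderm, against 2536 CPM in Non Neural Ectoderm. The prechordal plate gene gsc averaged 4735 CPM in Prechordal Plate cells, against 500.5 CPM in the next type, and the endoderm gene sox32 averaged 2615 CPM in Endoderm (A) cells. Cells named YSL contam also carried the margin genes tbx16 (1422 CPM on average) and tbxta (1339 CPM). The injected mRNA mCh-NPL was near absent from both A libraries (1.00 and 0.911 CPM) and present in the dome library and both B libraries (4702, 7474 and 7925 CPM). Injection mix, deyolking and replicate letter cannot be told apart, and since dome goes with the B libraries in the first 2, changes from dome within the B libraries are given beside the tests. A barcode occurred in 2 libraries in 1 case, in dome and 50% epiboly replicate A.

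The ligands ndr1 and ndr2 were low at dome. ndr2 had 5.38 CPM at dome (40 UMIs), 50.6 and 36.6 CPM in libraries A and B of 30% epiboly, and 66.4 and 12.6 CPM in libraries A and B of 50% epiboly. All 4 epiboly libraries were above dome, but the 50% epiboly libraries lay on either side of those at 30%. Between 50% epiboly and dome, ndr2 rose by 3.52 on the log2 scale (SE 0.77, adjusted p = 0.0140, edgeR quasi-likelihood test). In that comparison 966 of 12150 genes tested were called at a false discovery rate of 5%, which is 7.95%, with 5.69% higher and 2.26% lower, and 2 of the 8 genes were called, ndr2 and smad2. The call for ndr2 was lost without 50% epiboly replicate A (log2 change 1.67, adjusted p = 0.159). Within the B libraries, ndr2 was 6.80-fold as high at 30% epiboly as at dome (interval 4.69 to 10.0), and 2.33-fold as high at 50% epiboly as at dome (0.882 to 5.27), where 50% epiboly replicate B held 7 UMIs of the gene.

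ndr1 had 7.13 CPM at dome (53 UMIs), 22.8 and 14.7 CPM in libraries A and B of 30% epiboly, and 21.1 and 16.2 CPM in libraries A and B of 50% epiboly. The epiboly libraries were all above dome and the 2 epiboly stages overlapped. The log2 change from dome to 50% epiboly was 1.90 (SE 0.59, adjusted p = 0.0557, edgeR), so the difference was not called. It was called without 50% epiboly replicate B (log2 change 2.10, adjusted p = 0.00185). Within the B libraries, ndr1 was 2.06-fold as high at 30% epiboly as at dome (interval 1.35 to 3.14) and 2.27-fold at 50% epiboly (0.982 to 4.63). Of spaw, the remaining Nodal ligand gene, 9 UMIs were found in all libraries together, and it was not tested.

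The antagonists were also lowest at dome. lft1 had 6.06 CPM at dome (45 UMIs), 13.9 and 26.7 CPM in libraries A and B of 30% epiboly, and 18.2 and 12.6 CPM in libraries A and B of 50% epiboly. lft2 had 6.59 CPM at dome (49 UMIs), 23.2 and 28.4 CPM in libraries A and B of 30% epiboly, and 19.8 and 10.8 CPM in libraries A and B of 50% epiboly. For each gene the epiboly libraries were above dome, and neither gene was called by edgeR with all 5 libraries and no replicate block. The log2 changes from dome to 50% epiboly were 1.90 for lft1 (SE 0.63, adjusted p = 0.0692) and 1.82 for lft2 (SE 0.60, adjusted p = 0.0665, edgeR). Without 50% epiboly replicate B both were called (log2 change 2.12 for each, adjusted p = 0.00188 and 0.00147). With the replicate letter as a block, lft1 was called (log2 change 2.16, SE 0.72, adjusted p = 0.0434). Within the B libraries, 30% epiboly had 4.41 times the dome level of lft1 (interval 3.02 to 6.51) and 4.31 times that of lft2 (2.99 to 6.26). For 50% epiboly replicate B the ratio to dome was 2.07 for lft1 (0.789 to 4.63) and 1.63 for lft2 (0.572 to 3.82).

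The balance of antagonist and ligand UMIs differed between libraries of 1 stage. At dome, 94 of the 187 UMIs of the 4 genes were lefty UMIs (interval 42.9% to 57.6%). At 30% epiboly the lefty share was 33.6% for replicate A and 51.8% for replicate B, and the exact intervals of these shares do not overlap. At 50% epiboly, 334 of 1102 UMIs were lefty UMIs in replicate A (27.6% to 33.1%), and 13 of 29 in replicate B (26.4% to 64.3%). Within the ligands, the share of ndr2 was 43.0% at dome (32.8% to 53.7%), 68.9% and 71.3% in libraries A and B of 30% epiboly, and 75.9% in 50% epiboly replicate A. The share was 43.8% in 50% epiboly replicate B, from 16 UMIs, with an interval of 19.8% to 70.1%.

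gdf3, unlike the ligands, was highest at dome. It had 386 CPM at dome, 253 and 208 CPM in libraries A and B of 30% epiboly, and 114 and 136 CPM in libraries A and B of 50% epiboly, and no library of 1 stage overlapped another stage. The log2 change was -1.19 between 50% epiboly and dome (SE 0.38, adjusted p = 0.0602, edgeR) and -0.68 between 50% and 30% epiboly (SE 0.33, adjusted p = 0.852), so neither was called. Between 50% epiboly and dome it was called without 50% epiboly replicate B (log2 change -1.22, adjusted p = 0.0165) and under library totals without TMM scaling (log2 change -1.63, adjusted p = 0.00873), where the median of all genes was -0.56, against -0.09 with TMM. Within the B libraries, gdf3 at 30% epiboly was 0.539 of its dome level (interval 0.493 to 0.588) and at 50% epiboly 0.354 of it (0.278 to 0.444).

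The co-receptor gene tdgf1 was not called between stages. It had 94.5 CPM at dome, 155 and 90.7 CPM in libraries A and B of 30% epiboly, and 162 and 108 CPM in libraries A and B of 50% epiboly. The A libraries were above the B libraries at each epiboly stage, and 30% epiboly replicate B was level with dome. The log2 change between 50% epiboly and dome was 0.99 (SE 0.48, adjusted p = 0.189, edgeR), and without 50% epiboly replicate B it was 1.31 (adjusted p = 0.0138) and called. Replicate B of 30% epiboly had 0.960 of the dome level of tdgf1 (interval 0.830 to 1.11), and replicate B of 50% epiboly 1.14 times it (0.861 to 1.49).

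Of the transducers, smad2 fell and foxh1 was not called. smad2 had 90.0 CPM at dome (669 UMIs), 31.7 and 27.0 CPM in libraries A and B of 30% epiboly, and 22.9 and 7.18 CPM in libraries A and B of 50% epiboly (4 UMIs in the last). It fell by 1.86 on the log2 scale between 50% epiboly and dome (SE 0.53, adjusted p = 0.0409, edgeR), and this call held under all 10 alternatives tried (adjusted p from 0.00288 to 0.0485). Replicate B of 30% epiboly had 0.300 of the dome level of smad2 (interval 0.235 to 0.380), and replicate B of 50% epiboly 0.0798 of it (0.0217 to 0.205). foxh1 had 85.2 CPM at dome, 154 and 165 CPM in libraries A and B of 30% epiboly, and 149 and 111 CPM in libraries A and B of 50% epiboly. The log2 change of foxh1 between 50% epiboly and dome was 1.08 (SE 0.44, adjusted p = 0.126), not past the threshold although all 4 epiboly libraries were above dome. It was called without 50% epiboly replicate B (log2 change 1.34, adjusted p = 0.0110). In replicate B, foxh1 had 1.94 times its dome level at 30% epiboly (interval 1.72 to 2.18) and 1.31 times it at 50% epiboly (0.990 to 1.70).

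Between 30% epiboly and dome, 0 of the 8 genes were called by edgeR. An unadjusted p below 0.05 was found for 1607 of the 12150 genes tested, and for 6 of the 8. Without 50% epiboly replicate B, which enters through the shared estimate of the spread, 6 were called, beside 8.41% of all genes in that fit, and without 50% epiboly replicate A 5 were, beside 6.91%. With the replicate letter as a block 1 was called, ndr2 (log2 change 2.64, adjusted p = 0.00319), beside 199 genes in all (1.64%). DESeq2 called 1, ndr2 (log2 change 3.24, adjusted p = 0.00322). The share of all genes called by edgeR with all libraries and no block was 0.321%. The log2 change of ndr2 was 3.24 with SE 0.76 and adjusted p = 0.0808 in edgeR. Between 50% and 30% epiboly, 0 of the 8 were called by edgeR or DESeq2, and 0 had an unadjusted p below 0.05 in edgeR. Among all genes the edgeR share was 0%, with 702 genes at an unadjusted p below 0.05, and the replicate block called 2 genes, none of the 8. The log2 changes of the 8 between these stages lay from -0.68 for gdf3 to 0.39 for tdgf1. Dome has 1 library, so its comparisons assume that it varies like the epiboly libraries.

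**Figure D1:**
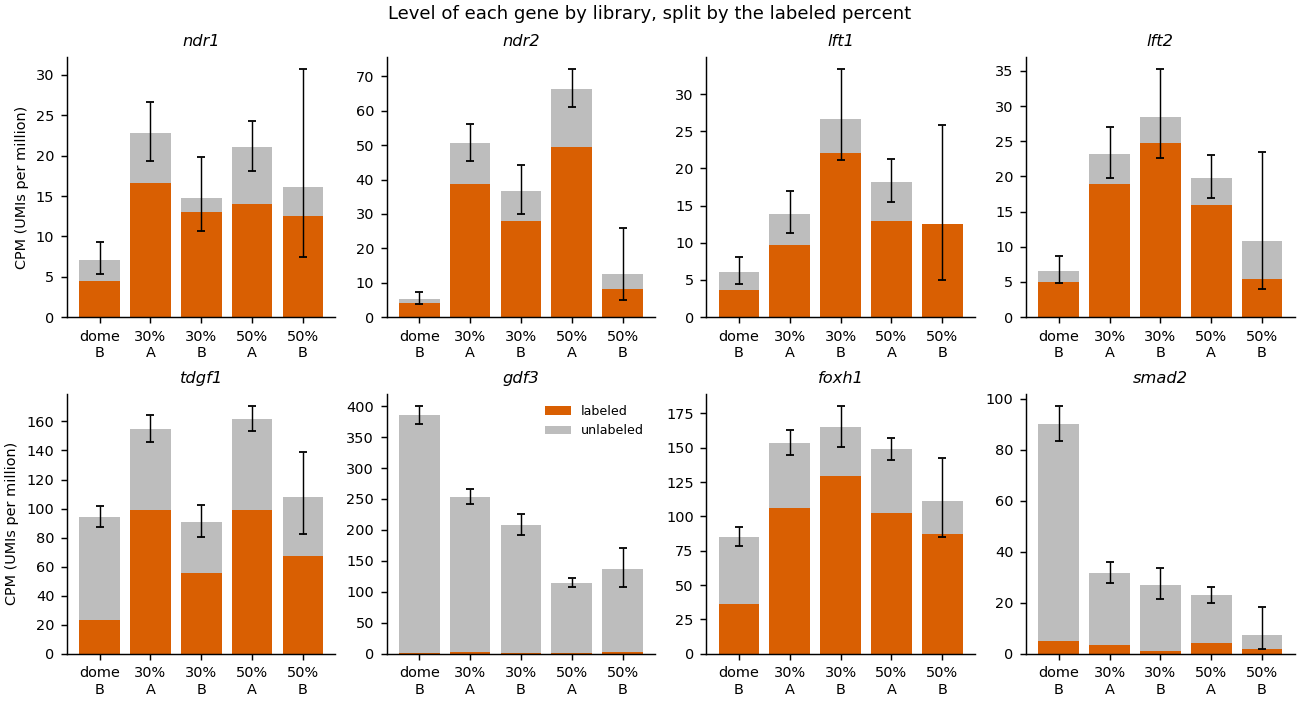
Level of each gene in each library (vertical axis, CPM) with libraries along the horizontal axis, split into labeled (orange) and unlabeled (gray) RNA by the labeled percent over all UMIs. Error bars are exact 95% Poisson intervals of the total. gdf3 and smad2 are highest at dome and mostly gray, whereas the ligand and lefty genes are lowest at dome and mostly orange.

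The labeled fraction of the 8 genes ranged from that of the zygotic to that of the maternal controls. It was the sum of UMIs times the deposited new-to-total ratio over the sum of UMIs. The estimate is lower for genes with few UMIs in a cell. A list of 9 zygotic control genes (such as tbxta and krt8) was 64.9% labeled where a cell held 1 UMI of the gene, 82.9% at 2 UMIs and 92.6% at 3 or more. A list of 7 maternal control genes (such as h1m and wee2) was 1.60%, 0.714% and 0.610% labeled. Each gene is therefore read beside the controls at the same number of UMIs.

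ndr1, ndr2, lft1 and lft2 were labeled about as highly as the zygotic controls. In cells with 3 or more UMIs of the gene, 92.0% of ndr1 UMIs, 88.7% of ndr2 UMIs, 88.8% of lft1 UMIs and 90.4% of lft2 UMIs were labeled. These rest on 57, 344, 60 and 198 UMIs. In cells with 1 UMI the values were 59.5% for ndr1, 61.6% for ndr2, 62.3% for lft1 and 72.6% for lft2. Already at dome, with all UMIs counted, 62.3% of ndr1, 77.5% of ndr2, 60.0% of lft1 and 76.3% of lft2 UMIs were labeled, from 40 to 53 UMIs per gene. The zygotic controls at dome were 83.3% labeled over all UMIs and 66.0% in cells with 1 UMI. In dome cells with 1 UMI, ndr1 (56.1%) and lft1 (55.0%) lay below the controls, and ndr2 (76.0%) and lft2 (82.4%) above, from 17 to 41 UMIs per gene.

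gdf3 was unlabeled at the level of the maternal controls. Its labeled percent over all UMIs was 0.494% at dome, 0.854% and 0.913% in libraries A and B of 30% epiboly, and 1.23% and 1.59% in libraries A and B of 50% epiboly. The maternal controls in the same libraries had 0.577%, 0.776%, 0.888%, 1.22% and 0.390%, and the injected unlabeled mRNAs lay between 0.577% and 0.890%. The labeled part of gdf3 was at most 2.17 CPM in any library, and its unlabeled part was 384 CPM at dome and 113 and 134 CPM at 50% epiboly.

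smad2 was mostly unlabeled but not as completely as gdf3. In cells with 3 or more UMIs of smad2 it was 4.92% labeled at dome (138 UMIs) and 0% in 30% epiboly and in 50% epiboly replicate A, where such cells held 3 to 6 UMIs per library and none were found in 50% epiboly replicate B. In cells with 1 UMI of smad2, the labeled percent was 7.24% at dome, 10.2% and 6.22% in libraries A and B of 30% epiboly, and 18.8% and 25.0% in libraries A and B of 50% epiboly (4 UMIs in the last). A higher percent at 50% epiboly was thus read in cells with 1 UMI and could not be read at 3 or more. The maternal controls with 1 UMI per cell lay from 0.717% to 1.99% over the libraries. With all UMIs counted, the unlabeled part of smad2 was 85.0 CPM at dome, 28.3 and 25.8 CPM at 30% epiboly, and 18.6 and 5.39 CPM at 50% epiboly. The labeled part stayed between 1.21 and 5.04 CPM in all 5 libraries.

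tdgf1 and foxh1 were mixed at dome. In the epiboly libraries, foxh1 lay nearer to the zygotic controls than tdgf1 did. In cells with 3 or more UMIs, tdgf1 was 42.9% labeled at dome, 75.1% and 68.1% in libraries A and B of 30% epiboly, and 76.9% and 81.7% in libraries A and B of 50% epiboly (13 UMIs in the last). With all UMIs counted, the labeled part of tdgf1 was 23.0 CPM at dome, 99.2 and 55.3 CPM at 30% epiboly, and 99.2 and 67.5 CPM at 50% epiboly. Its unlabeled part was 71.5 CPM at dome, 55.7 and 35.4 CPM at 30% epiboly, and 62.8 and 40.2 CPM at 50% epiboly. These parts include cells with 1 UMI of the gene, where the zygotic controls were 64.9% labeled. By the labeled percent of cells with 3 or more UMIs, the unlabeled part was 53.9 CPM at dome. It was then 38.5 and 28.9 CPM at 30% epiboly, and 37.5 and 19.7 CPM at 50% epiboly. By either percent, the labeled part of tdgf1 was larger and the unlabeled part smaller in every epiboly library than at dome.

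foxh1 was 59.0% labeled at dome in cells with 3 or more UMIs, 79.1% and 90.8% in libraries A and B of 30% epiboly, and 87.9% in 50% epiboly replicate A (3 UMIs were left in replicate B). The zygotic controls in the same libraries, in turn, had 90.1%, 91.4%, 96.4% and 92.6%. In cells with 1 UMI, foxh1 was 37.9%, 60.1%, 65.3% and 57.9% labeled in these libraries. The zygotic controls with 1 UMI had 66.0%, 65.0%, 72.4% and 62.1%. The part of missed label in the unlabeled foxh1 RNA was not tested. The labeled part of foxh1, with all UMIs counted, was 36.2 CPM at dome, 106 and 130 CPM at 30% epiboly, and 103 and 87.2 CPM at 50% epiboly. Its unlabeled part was 49.0 CPM at dome, 47.8 and 35.4 CPM at 30% epiboly, and 45.9 and 24.1 CPM at 50% epiboly. By the labeled percent of cells with 3 or more UMIs, the unlabeled part of foxh1 was lower, at 34.9 CPM at dome. It was then 32.0 and 15.2 CPM at 30% epiboly, and 17.9 CPM in 50% epiboly replicate A.

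Whether the labeled percent moved between 30% and 50% epiboly could not be settled with 2 libraries per stage. For 3 genes all 4 epiboly libraries held cells with 3 or more UMIs. tdgf1 averaged 79.3% at 50% epiboly and 71.6% at 30% epiboly, foxh1 94.0% at 50% epiboly and 85.0% at 30% epiboly, and gdf3 5.43% at 50% epiboly and 0.620% at 30% epiboly. The foxh1 value of 50% epiboly replicate B rests on 3 UMIs. The gdf3 value of 50% epiboly replicate B was 9.30%, over 13 UMIs. The exact two-sided permutation p was 0.33 for tdgf1, 0.667 for foxh1 and 0.33 for gdf3 (adjusted over the 3 genes 0.50, 0.667 and 0.50). The smallest p this design allows is 0.33. With all UMIs counted, smad2 averaged 21.8% at 50% epiboly and 7.58% at 30% epiboly (exact permutation p = 0.33, adjusted over the 8 genes 0.667).

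**Figure D2:**
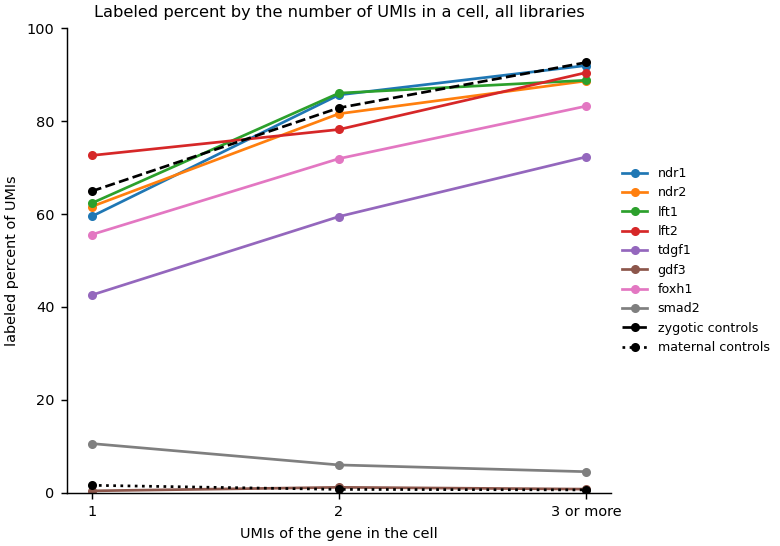
Labeled percent of UMIs (vertical axis) by the number of UMIs of the gene in the cell (horizontal axis), over all libraries, for the 8 genes (solid) and for the zygotic (dashed) and maternal (dotted) control lists. The ligand and lefty genes run with the zygotic controls, tdgf1 and foxh1 lie below them, and gdf3 runs with the maternal controls.

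The ligand and lefty genes were concentrated in margin cells taken as a group, in every library. Some of the other types still reached the levels of some margin types, as given by type below. Of the ndr2 UMIs, 52.5% lay in margin cells at dome (interval 36.1% to 68.5%), 90.7% and 80.4% in libraries A and B of 30% epiboly, and 84.4% and 85.7% in libraries A and B of 50% epiboly. Margin cells held 13.3% of all UMIs at dome, 30.4% and 29.9% at 30% epiboly, and 38.3% and 40.0% at 50% epiboly. In the epiboly libraries the shares in margin cells lay from 74.4% to 88.9% for ndr1, from 82.5% to 91.9% for lft1 and from 83.3% to 92.5% for lft2.

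Within a library, ndr1 was 8.26-fold as high in margin cells as in the other cells (log2 ratio 3.05 ± 0.38, SD, n = 4 libraries), and ndr2 10.8-fold (3.43 ± 0.72). The ratio was 12.3-fold for lft1 (3.62 ± 0.50) and 17.8-fold for lft2 (4.15 ± 0.30). 50% epiboly replicate B entered none of these means, since its other cells held 1 UMI of each gene, but its margin cells had 22.4 to 35.9 CPM of the 4 genes, against 2.99 CPM of each in its other cells.

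Summed over margin cells, ndr2 was also higher in every epiboly library than at dome. ndr2 had 21.3 CPM in margin cells at dome, 151 and 98.5 CPM in libraries A and B of 30% epiboly, and 146 and 26.9 CPM in libraries A and B of 50% epiboly (6 UMIs in the last). ndr1 in margin cells had 27.4 CPM at dome, 58.9 and 36.7 CPM at 30% epiboly, and 48.5 and 35.9 CPM at 50% epiboly. lft1 had 25.4 CPM at dome, 37.7 and 76.8 CPM at 30% epiboly, and 43.7 and 26.9 CPM at 50% epiboly in the same cells. lft2 had 35.5 CPM at dome, 65.5 and 85.9 CPM at 30% epiboly, and 47.9 and 22.4 CPM at 50% epiboly. In margin cells each of the 4 genes was above its dome level at 30% epiboly, while lft2 in 50% epiboly replicate B, with 5 UMIs, was below it. The mix of margin types also changed. Of the 232 margin cells at dome, 160 were Notochord, 5 Muscle Blood and 3 Prechordal Plate cells. Of the 1147 in 50% epiboly replicate A, 192 were Notochord, 278 Muscle Blood and 92 Prechordal Plate cells. The part of this mix in the margin levels was not tested, and levels by type are given below.

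The other 4 genes were spread over the embryo. tdgf1 was higher in margin cells than in the other cells in 5 of 5 libraries (log2 ratio 0.47 ± 0.04, SD, n = 5). foxh1 was lower in margin cells in 5 of 5 libraries (-0.56 ± 0.25), with 99.1 CPM in margin cells and 180 CPM in the other cells of 50% epiboly replicate A and 76.1 and 86.6 CPM at dome. gdf3 was lower in margin cells in 4 of 5 libraries (-0.18 ± 0.12, n = 5) and smad2 in 4 of 4 libraries (-0.28 ± 0.11). The direction of the last 2 depended on the cells they were set against, since in margin cells against ectoderm cells alone the log2 ratio was 0.42 ± 0.66 for gdf3 and 0.61 ± 0.95 for smad2.

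**Figure D3:**
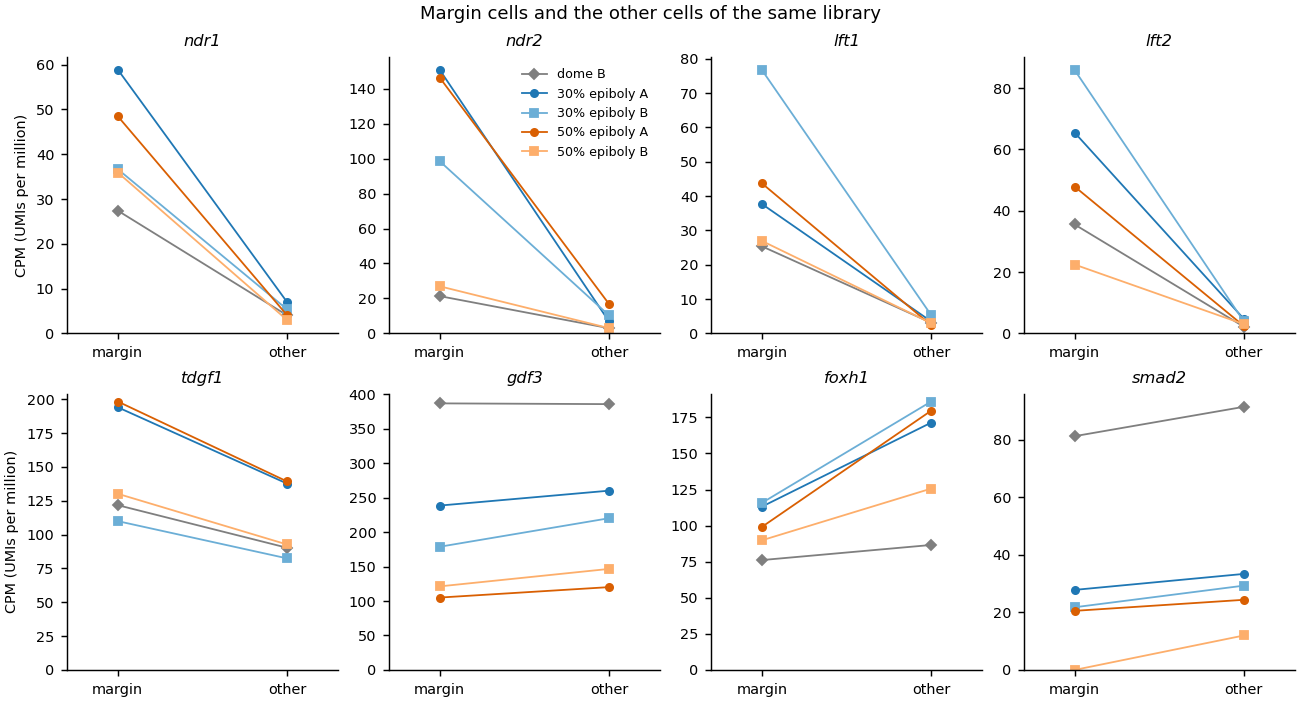
Level of each gene (vertical axis, CPM) in margin cells (left) and in the other cells (right) of the same library, 1 line per library. All lines of ndr1, ndr2, lft1, lft2 and tdgf1 are higher on the left and all lines of foxh1 are higher on the right.

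By cell type, ndr1 was highest in Endoderm (A) cells, at 193 ± 82 CPM (mean ± SD over 4 libraries with 5 or more cells of the type). It had 235 and 164 CPM there in libraries A and B of 30% epiboly and 92.1 and 279 CPM in libraries A and B of 50% epiboly, the last from 3 UMIs in 6 cells. Muscle Blood cells followed at 99.7 ± 35.6 CPM (n = 5), and their range overlapped that of Endoderm (A), as did those of Endoderm (B) and Prechordal Plate. Ventral Margin cells had 57.5 CPM of ndr1 at dome, 46.5 and 16.3 CPM at 30% epiboly, and 22.8 and 9.45 CPM at 50% epiboly, so that ndr1 was lower there in the epiboly libraries than at dome. The dome value rests on 13 UMIs, and its interval (30.6 to 98.4) overlaps that of each epiboly library. In neural and non-neural ectoderm the gene had 4 UMIs in all, from 50% epiboly replicate A.

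ndr2 was highest in Prechordal Plate cells, at 298 ± 138 CPM (n = 4). It had 346 and 347 CPM there in libraries A and B of 30% epiboly and 404 CPM in 50% epiboly replicate A, against 95.7 CPM in replicate B, where 5 cells held 1 UMI. Muscle Blood cells had 195, 185 and 162 CPM in libraries A and B of 30% epiboly and 50% epiboly replicate A, and no UMI in 5 cells at dome or in 12 cells of 50% epiboly replicate B. In the notochord type, ndr2 had 17.1 CPM at dome, 97.6 and 53.3 CPM in libraries A and B of 30% epiboly and 168 CPM in 50% epiboly replicate A, and no UMI in 26 cells of 50% epiboly replicate B. In Ventral Margin cells ndr2 had 26.5 CPM at dome, 163 and 46.6 CPM at 30% epiboly, and 88.5 and 47.2 CPM at 50% epiboly, above dome in each epiboly library. The dome value rests on 6 UMIs, and its interval (9.74 to 57.8) overlaps those of both B libraries (28.5 to 72.0 and 15.3 to 110). YSL contam cells, outside the margin types, averaged 53.2 ± 33.9 CPM of ndr2 (n = 4). A further type, neither margin nor ectoderm, had 84.7 CPM in 50% epiboly replicate A (62 UMIs) and at most 20.9 CPM in the other libraries.

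Of the lefty genes, lft2 was highest in Prechordal Plate (296 ± 240 CPM, n = 4) and Endoderm (A) cells (261 ± 75 CPM, n = 4), whose ranges overlapped. In Prechordal Plate cells lft2 had 513 and 467 CPM in libraries A and B of 30% epiboly and 202 CPM in 50% epiboly replicate A, and no UMI in the 5 cells of 50% epiboly replicate B. In Ventral Margin cells, by contrast, lft2 had 26.5 CPM at dome and 7.94 and 4.66 CPM at 30% epiboly. At 50% epiboly it had 1.38 and 18.9 CPM there, and the last 3 values rest on 2 UMIs each. Outside the margin types, YSL contam cells averaged 52.3 ± 41.1 CPM of lft2 (n = 4), against 28.0 ± 8.0 CPM in Notochord cells (n = 5).

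lft1 was highest in Muscle Blood cells, at 101 ± 52 CPM (n = 5), followed by Prechordal Plate (91.6 ± 71.2 CPM) and PGC cells, with overlapping ranges. In Ventral Margin cells lft1 had 61.9 CPM at dome, 37.4 and 28.0 CPM at 30% epiboly, and 12.4 and 18.9 CPM at 50% epiboly, so that both lefty genes were lower there in the epiboly libraries than at dome. The dome values rest on 14 UMIs of lft1 (interval 33.9 to 104) and 6 of lft2 (9.74 to 57.8). Of the epiboly libraries, only 50% epiboly replicate A had intervals clear of these, 7.38 to 19.7 for lft1 and 0.168 to 5.00 for lft2. Primordial germ cells (PGC) had 46.6 and 118 CPM of lft1 and 27.9 and 235 CPM of lft2 at dome and in 30% epiboly replicate A, from 3 to 10 UMIs in 26 and 9 cells. The same sums had 177 to 235 CPM of the prechordal plate gene gsc, and the part of other cells' RNA in these values was not tested.

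gdf3 was highest in PGC, at 624 CPM at dome (67 UMIs) and 776 CPM in 30% epiboly replicate A (33 UMIs). Both values were above the range of every other type. At dome, however, Cell Cycle Dome cells had 595 CPM of gdf3 (68 UMIs in 30 cells, interval 462 to 754). This interval overlaps that of PGC at dome (484 to 792). Cell Cycle Dome cells had 323 CPM in 50% epiboly replicate A (9 UMIs in 6 cells). Cells named Dome had 339 and 397 CPM in libraries A and B of 30% epiboly and 299 and 258 CPM in libraries A and B of 50% epiboly, against 407 CPM in the dome library. In 12 of 12 types with 20 or more cells in each library, gdf3 was lower in 50% epiboly replicate A than in 30% epiboly replicate A. Among these, Non Neural Ectoderm had 136 CPM at 50% epiboly, against 191 CPM at 30% epiboly, and the enveloping layer (EVL) had 48.0 CPM at 50% epiboly, against 153 CPM at 30% epiboly.

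smad2 was highest in Cell Cycle Dome cells, at 472 CPM at dome (54 UMIs in 30 cells) and 251 CPM in 50% epiboly replicate A (7 UMIs in 6 cells), and the range of the next type did not reach these values. Dome-named cells of the dome library had 90.2 CPM. In 8 of 9 types with 20 or more cells, smad2 was lower in 50% epiboly replicate A than at dome, non-neural ectoderm being the exception with 32.2 CPM in 50% epiboly replicate A and 14.4 CPM at dome (2 UMIs).

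tdgf1 was highest in EVL cells (280 ± 134 CPM, n = 4), Endoderm (A) cells (258 ± 101 CPM) and Prechordal Plate cells (255 ± 163 CPM), with overlapping ranges. In EVL cells tdgf1 had 133 CPM at dome, 392 and 198 CPM in libraries A and B of 30% epiboly and 396 CPM in 50% epiboly replicate A. With all UMIs counted, tdgf1 in these EVL sums was 40.2% labeled at dome, 76.8% and 68.0% at 30% epiboly, and 76.8% at 50% epiboly. In EVL cells with 3 or more UMIs of tdgf1, the labeled percent was 87.08% at dome, from 10 UMIs. It was 77.95% and 81.96% in libraries A and B of 30% epiboly, and 90.01% in 50% epiboly replicate A. A lower labeled percent at dome than in each epiboly library was thus read with all UMIs counted only. Non Neural Ectoderm had lower levels of tdgf1, at 115 CPM at dome, 73.4 and 52.8 CPM at 30% epiboly, and 68.6 and 14.0 CPM at 50% epiboly (1 UMI in the last).

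foxh1 was highest in Unspecified (30) cells (193 ± 70 CPM, n = 4), Non Neural Ectoderm (170 ± 48 CPM, n = 5) and Neural Ectoderm (161 ± 49 CPM, n = 5), with overlapping ranges. Levels differed among the types with high ligand levels. Prechordal Plate cells, highest in ndr2, had 112 and 134 CPM of foxh1 in libraries A and B of 30% epiboly, and 120 CPM in 50% epiboly replicate A. Endoderm (A) cells had 78.4, 27.4 and 30.7 CPM in the same libraries, and Muscle Blood cells had 73.0, 29.7 and 50.7 CPM. The notochord type had 149, 225 and 173 CPM.

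**Figure D4:**
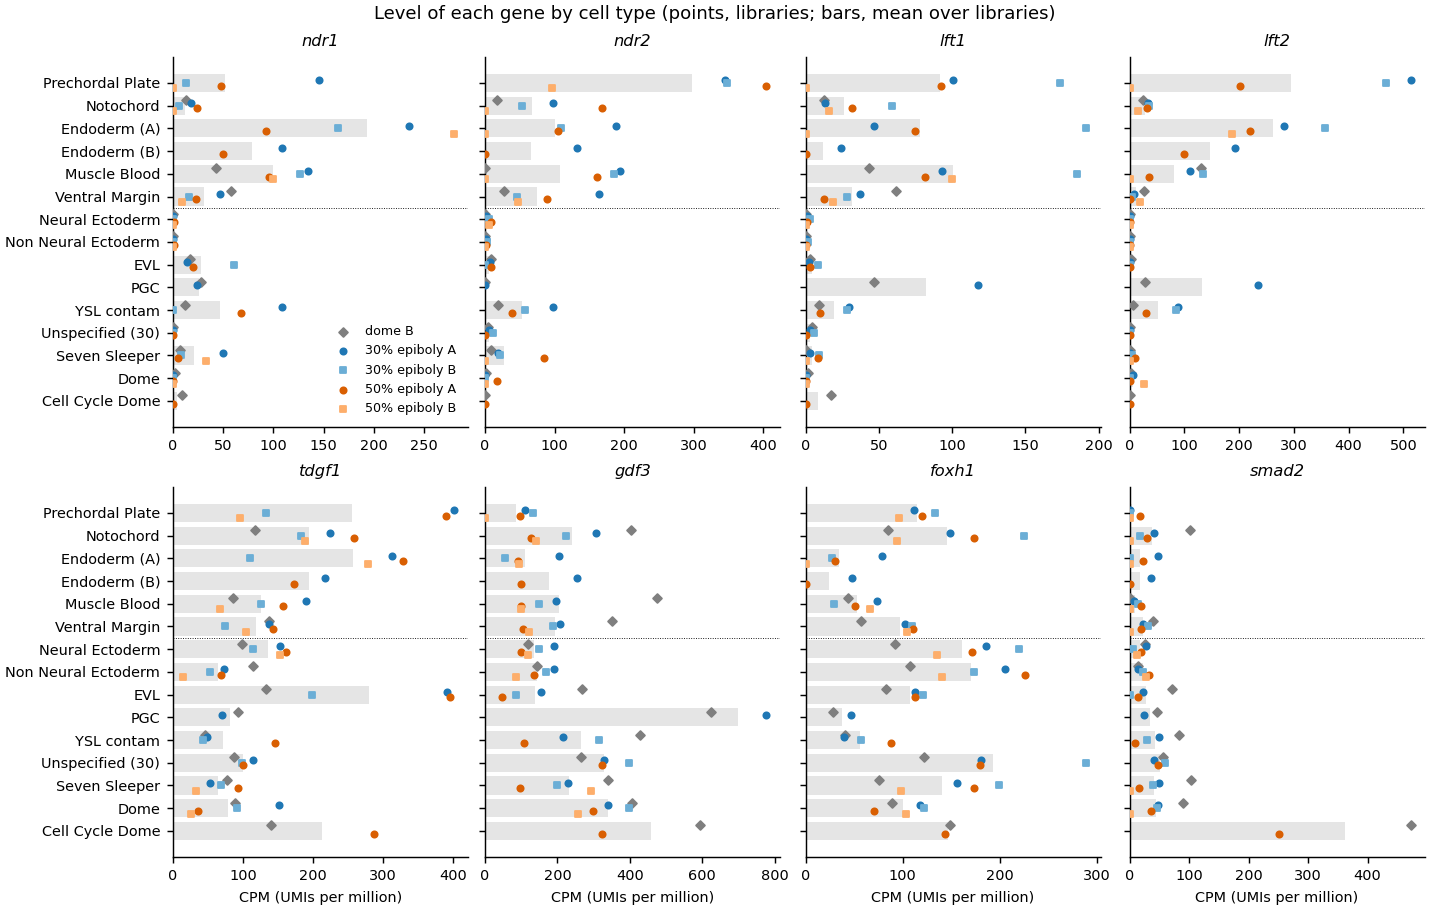
Level of each gene (horizontal axis, CPM) by cell type, with points for libraries that had 5 or more cells of the type and gray bars for their mean. Types above the dotted line are the margin types. ndr1, ndr2, lft1 and lft2 are near 0 in both ectoderm types, gdf3 stands highest in PGC, and smad2 in Cell Cycle Dome cells.

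Whether margin cells had a higher labeled percent than the other cells was asked for genes with 30 or more UMIs on both sides in cells with 3 or more UMIs. tdgf1 was 56.7% labeled in margin cells and 35.6% in the other cells at dome, 74.6% and 75.5% in 30% epiboly replicate A, and 75.2% and 78.4% in 50% epiboly replicate A. The mean difference was 5.65 percentage points (SD 13.4, n = 3, exact sign-flip p = 1.0, smallest possible p 0.25), and it was positive at dome only. foxh1 was 82.3% labeled in margin cells and 78.6% in the other cells of 30% epiboly replicate A, and 95.7% and 85.7% in 50% epiboly replicate A (n = 2, exact sign-flip p = 0.50, the smallest possible). For gdf3 the mean difference was 0.34 percentage points (SD 1.05, n = 4, exact sign-flip p = 0.875). The p-values of the 3 genes were 1.0 after adjustment over them. ndr2 could be compared in 50% epiboly replicate A alone, with 91.3% in margin cells (161 UMIs) and 80.5% in the other cells (33 UMIs). Of these 33 UMIs, 29 came from a type that is neither margin nor ectoderm (77.8% labeled), and 4 from Neural Ectoderm (100%). The ndr2 value of the other cells thus stands mostly for that type, not for cells outside the margin in general. With all UMIs counted, tdgf1 was higher in margin cells in 4 of 4 libraries, by 9.45 percentage points on average (SD 7.71, exact sign-flip p = 0.125, the smallest possible, and 0.625 adjusted over 5 genes).

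Over all margin cells, lefty RNA was higher in cells with ligand RNA at both epiboly stages, but within single types this was not uniform. Margin cells with a UMI of ndr1 or ndr2 had 122 CPM of lft2, against 28.2 CPM in margin cells without one, in 30% epiboly replicate A. In 30% epiboly replicate B the values were 155 CPM with and 44.2 CPM without, and in 50% epiboly replicate A 66.9 CPM with and 35.9 CPM without. lft1 had 66.4 CPM with and 18.8 CPM without in 30% epiboly replicate A, 121 CPM with and 49.7 CPM without in 30% epiboly replicate B, and 65.4 CPM with and 30.1 CPM without in 50% epiboly replicate A. At dome lft2 had 142 CPM with a ligand UMI (24 UMIs in 38 cells) and 13.5 CPM without (11 UMIs in 194 cells), while lft1 had 23.7 CPM with and 25.7 CPM without (4 and 21 UMIs). Cells with a ligand UMI were deeper, with medians of 2152 to 4898 UMIs, against 2024 to 3880 UMIs in those without, and the part of depth and of RNA from other cells was not tested. The margin types differ in both ligand and lefty levels. Within a type, 8 sums of a type and a library had 20 or more cells with and without a ligand UMI, all in the A libraries. Each lefty gene was higher with a ligand UMI in 6 of the 8, but some of these counts were small. lft2 in Ventral Margin cells of 50% epiboly replicate A, counted as higher, had 1 UMI on each side. In Ventral Margin cells of 30% epiboly replicate A, lft1 had 69.3 CPM with and 15.4 CPM without (25 and 8 UMIs), and lft2 had 8.31 CPM with and 7.69 CPM without (3 and 4 UMIs). In notochord cells of that library lft2 had 95.8 CPM with and 16.6 CPM without (15 and 10 UMIs). In Prechordal Plate cells of 50% epiboly replicate A lft2 was lower with a ligand UMI, at 174 CPM with and 254 CPM without (33 and 26 UMIs), and in Muscle Blood cells of 30% epiboly replicate A it had 108 CPM with and 113 CPM without.

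Along the deposited pseudotime, which orders cells by total RNA on a scale of 240 to 360 pseudo-minutes, cells of 1 stage differed as well. By the study's methods, its starting cells were unspecified dome cells with the most RNA of a set of maternal genes. A fall of maternal RNA and a rise of zygotic RNA along it are thus partly built in. These levels are a description without a test. In the dome library ndr2 had 1.35 CPM in cells at 240 to 260 pseudo-minutes, 0.760 CPM at 260 to 280, 6.90 CPM at 280 to 300, 14.4 CPM at 300 to 320 and 68.9 CPM at 320 to 340 (10 UMIs in 56 cells). lft2 had 0.675, 1.14, 6.51, 32.5 and 68.9 CPM in the bins in turn. In 30% epiboly replicate B, ndr1 had 2.49, 6.44, 28.3 and 79.6 CPM in the bins from 280 to 360 pseudo-minutes. gdf3 ran the other way in every library. It had 478, 440, 327, 235 and 124 CPM at dome over the bins from 240 to 340, and 317, 143, 97.0 and 75.4 CPM in 50% epiboly replicate A over those from 280 to 360. foxh1 was highest in the bin from 300 to 320 in 3 of the 4 epiboly libraries, with 201 CPM in 30% epiboly replicate B, against 70.8 CPM there in the last bin.

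**Figure D5:**
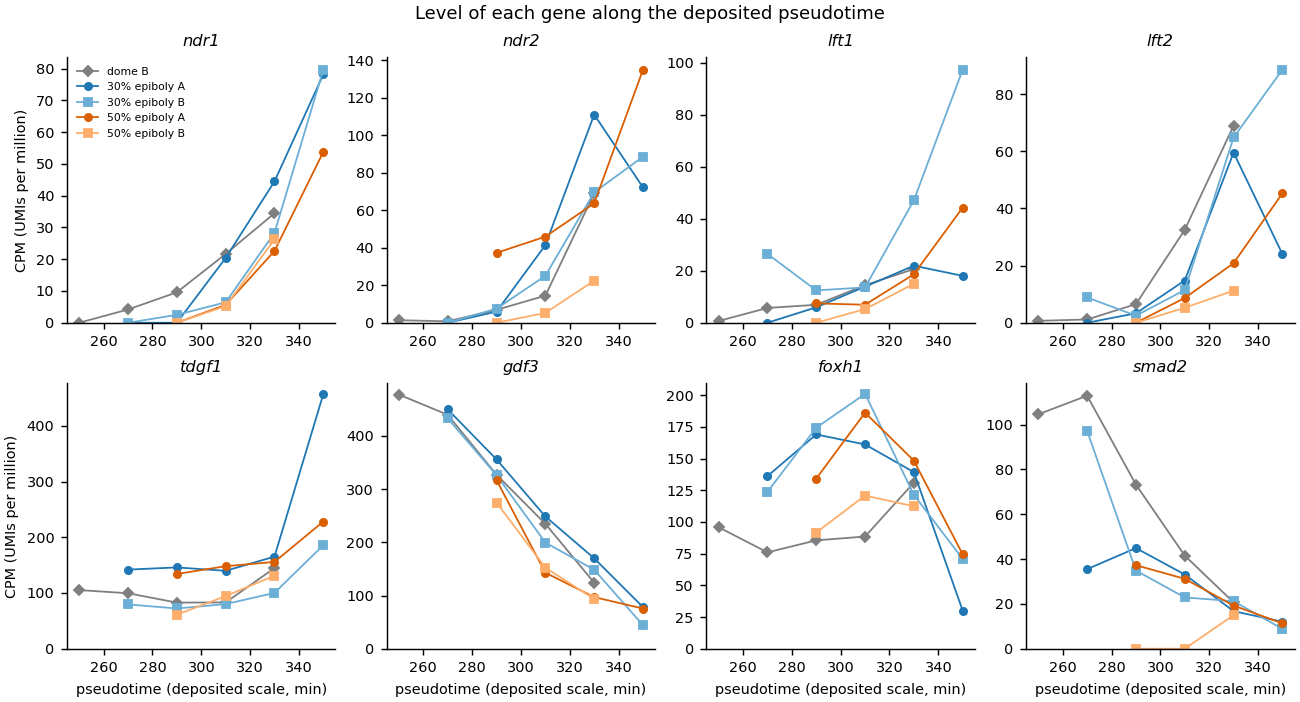
Level of each gene (vertical axis, CPM) in bins of 20 pseudo-minutes (horizontal axis, bin centers), 1 line per library, for bins with 20 or more cells. The ligand and lefty genes are at most 37.3 CPM before 300 pseudo-minutes and reach their highest levels after 320, and gdf3 declines along every line.

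The genes most like each of the 8 were found over 49 sums of a library and a cell type with 20 or more cells, by Pearson's r of log2(CPM + 10) among 6917 genes with 200 or more UMIs. The sums share libraries and the cells that defined the types, so these r values are a description. ndr1 was nearest to flrt3 (r = 0.89), sp5a (0.89) and trib3 (0.89), and ndr2 to pcdh8 (0.91), osr1 (0.91), one of the genes used to name clusters, and cyp27c1 (0.90). lft1 was nearest to fgf3 (0.88), dkk1b (0.87) and pcdh8 (0.86), and among the genes nearest to lft2 were lhx1a (0.91) and kirrel3l (0.90). gdf3 was nearest to slc16a3 (0.92), mkrn4 (0.92) and patl1 (0.90), and smad2 to ssx2ipa (0.81), siva1 (0.80) and mpp7a (0.80). tdgf1 and foxh1 had less close neighbors, ets2 (0.75), gadd45ba (0.73) and tuba8l2 (0.69) for tdgf1, and sox3 (0.73), foxd5 (0.71) and cited4b (0.70) for foxh1. Between the 4 ligand and lefty genes r lay from 0.77 to 0.84, and between gdf3 and smad2 it was 0.73. foxh1 had negative values with the 4, from -0.59 with ndr1 to -0.32 with ndr2.

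Further genes of the pathway were taken from lists. Of the activin receptor genes, 6 were tested and 0 were called by edgeR in any comparison, with 0 at an unadjusted p below 0.05. acvr1ba, a type I receptor, had 166 CPM at dome, 170 and 114 CPM at 30% epiboly, and 150 and 80.8 CPM at 50% epiboly, and was 39.7% labeled in cells with 3 or more UMIs. acvr1bb had 15.2 CPM at dome, 13.8 and 16.8 CPM at 30% epiboly, and 8.66 and 8.98 CPM at 50% epiboly, and was 7.56% labeled over all UMIs. The median log2 change of the 6 between 50% epiboly and dome was -0.41, against -0.09 for all genes.

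Of the co-factors and transducers on the list, 5 were tested and 0 were called, with 4 at an unadjusted p below 0.05 between 50% epiboly and dome. Among all 12150 genes tested, 3294 had such a p in that comparison. The listed genes did not all change in the same direction there, and 3 of the 5 had a log2 change above 0. mixl1, a homeodomain partner of Smad2, had 79.3 CPM at dome, 222 and 273 CPM at 30% epiboly, and 181 and 77.2 CPM at 50% epiboly, and was 90.9% labeled in cells with 3 or more UMIs. The other with most UMIs was fscn1a, encoding an actin-bundling protein, with 548 CPM at dome, 817 and 810 CPM at 30% epiboly, and 915 and 580 CPM at 50% epiboly. Neither the convertase genes furina and furinb nor dact2, which dampens Nodal signals, were called. dact2 had 23.4 CPM at dome, 55.0 and 59.2 CPM at 30% epiboly, and 60.4 and 26.9 CPM at 50% epiboly.

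Nodal targets other than the lefty genes were tested as a list. Of 15 target genes, all tested, 10 rose and 0 fell between 50% epiboly and dome, where 5.69% of all genes were called higher, and their median log2 change was 2.33, against -0.09 for all genes. Of the 9 zygotic control genes, which include genes not chosen as Nodal targets, such as sox3 and cxcr4a, 8 rose in that comparison, with a median log2 change of 2.89. The 10 targets were gata6, sebox, sox32, tbx16, noto, flrt3, lhx1a, gsc, tbxta and gata5. Between 30% epiboly and dome sox32 (log2 change 4.74, SE 0.62, adjusted p = 0.00539) and tbxta (3.05, SE 0.43, adjusted p = 0.00539, edgeR) rose. sox32, which directs endoderm formation, had 1.61 CPM at dome (12 UMIs), 41.7 and 33.2 CPM at 30% epiboly, and 85.0 and 106 CPM at 50% epiboly. tbxta, the zebrafish brachyury gene, had 91.2 CPM at dome, 624 and 667 CPM at 30% epiboly, and 759 and 887 CPM at 50% epiboly. Both genes were higher than at dome in 4 of 4 epiboly libraries. Of the 15 genes, 4 (tbxta, gsc, noto and sox32) also stand on the zygotic control list.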

How the data were processed

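The members, lists, tests and most alternatives were chosen with earlier results of these data known. The authors deposited UMI counts per gene and cell, the labeled fraction of each gene in each cell (a new-to-total ratio from GRAND-SLAM on GRCz11), and a table with cell types and a pseudotime score. Per the study's methods the authors ran Drop-seq tools, mapped reads by Bowtie2 to base-converted genomes and kept cells with at least 500 genes. The step that wrote the deposited counts, the treatment of multi-mapping reads and that of doublets are not stated in the paper or labels. No doublet filter was added. Of 10 labeled samples, the 5 with IAA were used, and the 5 without it were not analyzed here. The dome label says replicate B and its cell names carry the letter A. The label was followed.

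Counts were summed per library and tested with edgeR 4.0.16 (TMM, filterByExpr, quasi-likelihood F test, stage as the only term, all 5 libraries) in R 4.3.3, with adjusted p-values by Benjamini-Hochberg over 12150 genes. DESeq2 1.42.0 was an alternative, as was the replicate letter as a block. The letters pair the epiboly libraries, since by the study's methods a replicate shared its deyolking procedure (correlation of the A minus B differences of the 2 stages 0.1427 over 12150 genes), and dome entered as B. The injected RNAs stayed out of totals. P-values measure the spread between libraries, and nothing says whether the 2 libraries of a stage came from separate clutches. Labeled percent used pairs of a gene and a cell with 3 or more UMIs unless all UMIs are named. Libraries with fewer than 3 UMIs on a side stayed out of margin ratios. All 8 genes are named, and of each pathway list any gene past the threshold may be named and otherwise the 2 with most UMIs, with 3 similar genes each, of which 1 is not reported here. The test across genes was checked on simulated counts. Other tools were Python 3.11.15, numpy 2.4.6, pandas 2.3.3, scipy 1.17.1 and matplotlib 3.10.9. Without a GRCz11 genome, positions and sequences are not given.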

Additional observations from a re-analysis of the deposited data

How the results depend on the processing

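Depth limited 50% epiboly replicate B, whose 557065 UMIs held 6 to 9 UMIs of each ligand and lefty gene. Dome had 1 library, so the spread at dome is taken to be that of the epiboly libraries. Log2 changes from dome kept their direction for the 8 genes under every alternative run.

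smad2 was called between 50% epiboly and dome in 11 of 11 settings and ndr2 in 10 of 11. Without 50% epiboly replicate B, 8 of the 8 genes were called there, beside 21.8% of all genes, and without 50% epiboly replicate A 1 was, beside 9.49%. Between 30% epiboly and dome the number of the 8 called was 1 with DESeq2, without TMM and without a filter, against 0 as reported, and 1 to 6 when a library was left out. Genes called in all between 30% epiboly and dome numbered 192 with DESeq2, 67 without TMM, 294 without a filter and 69 to 1001 with a library left out, against 39 as reported. Between 50% epiboly and dome they numbered 2135 without TMM (604 higher and 1531 lower, against 691 and 275 with TMM) and 723 to 2598 with a library left out. Between 50% and 30% epiboly they numbered 3 without a filter and 1 to 122 with a library left out.

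A replicate block called 2 genes between 50% and 30% epiboly, and 199 genes between 30% epiboly and dome, 1 of them among the 8. The block with dome as letter A, an alternative chosen after seeing the data, called 2, 567 (2 of the 8) and, between 50% epiboly and dome, 1831 genes (5 of the 8). Either block gave log2 changes between 50% and 30% epiboly of -0.071 for ndr2 and 0.073 for lft1, and called lft1 between 50% epiboly and dome (2.16 with the label's letter and 1.82 with A). With dome as A, ndr1 and lft2 were called there too. Beside lft1 there and ndr2 between 30% epiboly and dome, the block with the label's letter changed no call of the 8 genes.

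With a library left out, the log2 change between 50% and 30% epiboly ranged from -0.034 to 0.61 for ndr1, from -1.60 to 0.87 for ndr2, from -0.49 to 0.47 for lft1 and from -0.32 to 0.17 for foxh1. The log2 ratio of margin to ectoderm cells was 4.66 for ndr2, 0.42 for gdf3 and 0.61 for smad2, and by means over cells the margin ratio of smad2 was -0.12. Differences in labeled percentage points between 50% and 30% epiboly were -8.51 for ndr1, -6.41 for ndr2, 9.35 for lft1 and -0.54 for tdgf1 with all UMIs, and -2.45 for ndr2, 1.14 for lft1 and -0.37 for gdf3 at exactly 3 UMIs. Between margin and other cells they were -7.15 for tdgf1 and -0.060 for gdf3 at exactly 3 UMIs. With a library left out, the labeled difference between 50% and 30% epiboly ranged from -0.69 to 4.87 for ndr2 and from -4.68 to 4.22 for lft2, and that between margin and other cells from -2.07 (without dome) to 10.1 for tdgf1 and from -0.17 to 0.62 for gdf3. The cause was not tested in these cases.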
